A study of Magallana angulata with 8 samples.

Results

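The mantle of Cu-exposed Fujian oysters (*Crassostrea angulata*) was compared with the mantle of oysters that were not exposed. The comparison used 4 of the 8 digital gene expression (DGE) libraries of the study, all the mantle libraries; the other 4 came from gill. M1 denotes mantle of oysters dissected directly after collection from the farm, and M2 denotes mantle of oysters kept in tanks with 30 µg Cu/L, added as CuCl2, for 30 days after 7 days of acclimation. All were adults from one farmed stock. In each set 60 oysters were dissected, and 6 with the lowest and 6 with the highest Cu were pooled into a low-Cu (L) and a high-Cu (H) library, so the libraries are M1-L and M1-H without exposure, and M2-L and M2-H with it. Values of the low-Cu library precede those of the high-Cu library throughout, and M1 precedes M2. The sample labels gave tissue, Cu class and library name, while the methods of the study gave the exposure, its dose and length, and the pool size. The low and high classes were chosen within each set, so the M2-L oysters had low Cu only among exposed oysters.

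The exposed oysters also differed from the unexposed ones in acclimation, tank holding, feeding with *Chlorella* powder, daily seawater renewal and time of dissection. Cu and these differences cannot be told apart. Every library was a single pool, and the only repeats of the comparison were its low-Cu pair (M2-L against M1-L) and its high-Cu pair (M2-H against M1-H), which share no library. Each exposure group therefore held 2 libraries, for which an exact two-sided permutation test of a single value cannot go below p = 0.333.

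The mantle is the sheet of tissue that lines the oyster shell. Its outer epithelium secretes the organic matrix and the mineral of the shell, it carries muscle, nerves and ciliated surfaces, and haemocytes pass through it from the open circulation. Cu is a cofactor of oxidases and of superoxide dismutases (SODs), and an excess of it generates reactive oxygen species. Cells take it up through the CTR family, hand it to chaperones, export it through P-type ATPases and bind a surplus to metallothioneins, which are small cysteine-rich proteins.

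Expression was given as RPKM, reads per kilobase of gene model scaled to the reads of the library that were assigned to genes. Whole reads could be recovered from these values, and the mantle libraries held between 2015375 and 2425354 of them. These totals are well below the mapped reads that the study reported for the same libraries. M2-L stood apart, since its 100 most abundant genes took 33.1% of the reads, against 23.1% to 29.5% in the other mantle libraries, and its detected genes had a median of 17 reads against 19 to 23. Tyrosinase-like genes, whose products oxidise phenols during shell formation, were compared between the tissues. Summed over the 15 genes tested, they reached 332 RPKM in M1-L and 311 in M1-H, against 1.81 and 3.21 in the unexposed gill libraries G1-L and G1-H. These 15, of 25 genes with such a name, had been kept by their mantle level. Genes low in mantle were thus left out, and the sums are not a check of the tissue label. The wider list of mantle markers, summed without that filter, did not separate the tissues, with sums of 687 and 755 RPKM in M1 and of 862 and 828 in G1.

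The test covered 19809 of 25647 genes, those whose RPKM averaged 1 or more over the mantle libraries, on the scale of log2(RPKM + 0.1). On this scale a few reads against none give a large change. In cystatin-A1 (OYG_10002871_10015400) 0 and 2 reads in the low-Cu pair gave a log2 change of 4.69. By at least 2-fold in both pairs, 735 genes (3.71%) were higher in M2 and 860 (4.34%) were lower. The filter let in genes through either set, so 241 of the 735 had a mean under 1 RPKM in M1 and 320 of the 860 had one in M2. Another 1033 genes differed 2-fold in opposite directions. The pairs therefore resembled each other only weakly, with a Spearman correlation of 0.134 and a Pearson correlation of 0.0925 across genes, which are not independent replicates. The median gene was shifted by -0.27 on the log2 scale in the low-Cu pair and by 0.00 in the high-Cu pair. Centring the libraries on their medians gave 921 higher and 642 lower genes, which raised the higher share from 46.1% to 58.9%. Higher genes also outnumbered lower ones at a mean RPKM of at least 5 (409 against 321) and with a pseudocount of 1 (554 against 512). With a pseudocount of 0.01 (744 against 892) or no filter (1001 against 1173) more genes were lower. Which direction held more genes therefore depended on the processing.

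Limma, with the Cu class as a block and Benjamini-Hochberg adjustment over all genes tested, called 34 genes at an adjusted p under 0.05. Of these 29 rose (0.146% of the genes tested) and 5 fell (0.0252%). All 34 differed at least 2-fold in both pairs, against 3.71% of all genes higher and 4.34% lower, but the call rests on this same difference. The fit left 1 residual degree of freedom and borrowed its spread from all genes, and the calls depended on it: none was made without the block, without the intensity trend, with a pseudocount of 0.01 or without the filter on low values, and 167 were made by limma voom on the recovered reads. A group of genes is described below by the number that were higher or lower in both pairs. Over all genes tested, 21.3% were higher in both pairs at any size and 33.3% were lower in both. These shares were not matched to the abundance of the genes in a group. In pooled tissue, fewer cells of a type and less RNA per cell cannot be told apart.

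**Figure D1:**
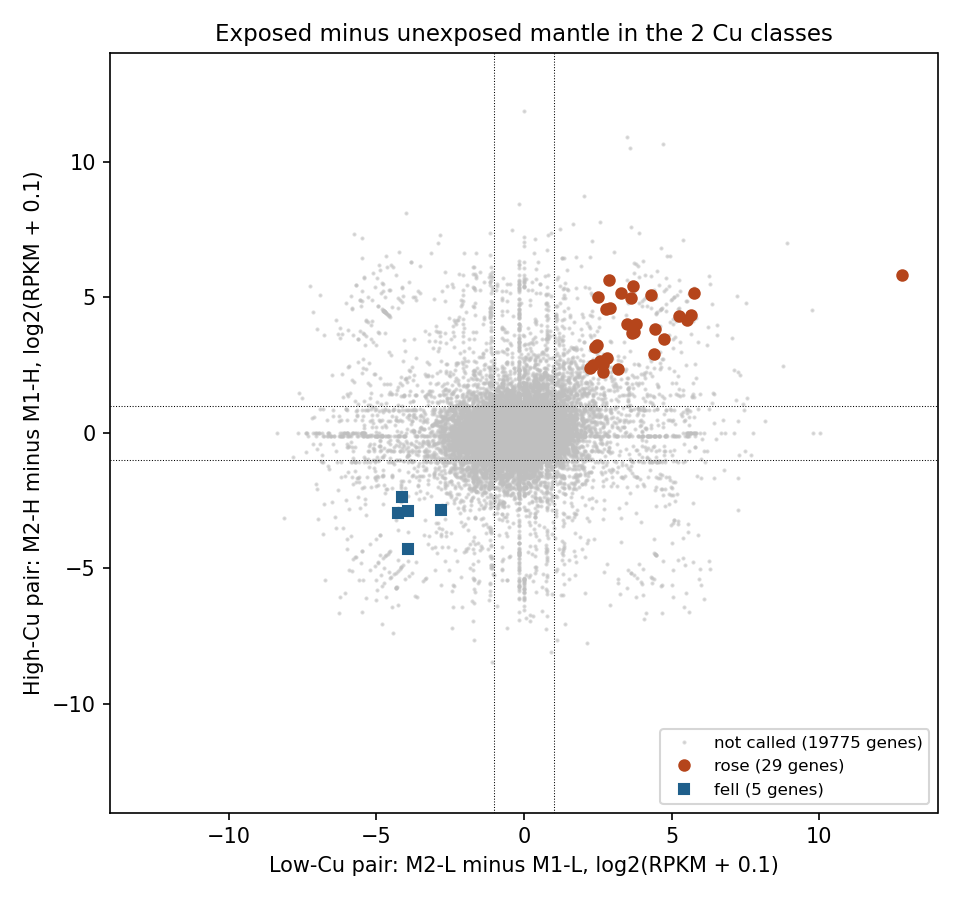
Change of each tested gene between exposed and unexposed mantle, as log2(RPKM + 0.1), in the low-Cu pair (x axis) and in the high-Cu pair (y axis), with dotted lines at 2-fold. The 29 genes that rose (circles) and the 5 that fell (squares) lie beyond 2-fold in both pairs, while the other genes (grey) spread into all 4 corners.

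Of the 34 called genes, 21 carried only the name of a hypothetical protein, 19 of which rose, and 13 had another name. Among all 19809 genes tested, 12786 had a name. The smallest adjusted p belonged to hypothetical protein CGI_10000492 (OYG_10000492_10001402), which had 5.1 and 6.4 RPKM in M1 and 281 and 232 in M2. It rose by 5.45 ± 0.40 (SE) on the log2 scale (limma, adjusted p = 0.00476).

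Among the named genes, putative tyrosinase-like protein tyr-3 (OYG_10011916_10034657) had the smallest adjusted p. It was at 11.2 and 16.1 RPKM in M1 and 222 and 543 in M2. Both exposed libraries were above both unexposed ones, by 19.9-fold (low-Cu pair) and 33.8-fold (high-Cu pair), and the gene rose by 4.69 ± 0.38 on the log2 scale (limma, adjusted p = 0.00548). COMM domain-containing protein 3 (OYG_10003823_10007151), a member of a family that acts in endosomal sorting and in the control of NF-kappaB in mammals, went from 27 and 72.2 RPKM to 340 and 918. Its folds were nearly equal in the pairs, 12.6 and 12.7, and it rose by 3.66 ± 0.33 (limma, adjusted p = 0.00723).

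Amyloid-like protein 2 (OYG_10018725_10037678), named after a membrane protein of the amyloid precursor family, had 3.24 and 10.2 RPKM in M1 and 154 and 182 in M2. It rose by 4.84 ± 0.46 on the log2 scale (limma, adjusted p = 0.00723), although 2 and 7 reads stood behind its M1 values. Hemagglutinin/amebocyte aggregation factor (OYG_10024233_10036329), which in horseshoe crabs clumps blood cells, showed the widest gap of any called gene. It had 0 and 3 reads in M1 against 940 and 192 in M2, which is at least 275-fold higher in the low-Cu pair with a floor of 3 reads for M1-L, and 59.4-fold higher in the high-Cu pair. Its level in the exposed libraries was 715 and 138 RPKM, and limma gave an adjusted p of 0.0356.

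Smaller changes were found in 3 genes that were named after their values had been seen. Arginase, hepatic (OYG_10017862_10034662), which splits arginine into urea and ornithine, had 77.8 and 75.5 RPKM in M1 and 365 and 393 in M2, and rose by 2.30 ± 0.33 (limma, adjusted p = 0.039). Cat eye syndrome critical region protein 5 (OYG_10027078_10005200), which belongs to a hydrolase family of little known function, rose from 79.6 and 29.9 RPKM to 508 and 141. In follistatin-related protein 4 (OYG_10012352_10014347), a secreted protein, the levels were 17 and 19.5 RPKM in M1 and 155 and 101 in M2. For these last 2 genes the adjusted p by limma was 0.039 as well. With median centring the calls of arginase and of cat eye syndrome critical region protein 5 were lost (limma, adjusted p = 0.0632 and 0.0533).

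The 5 genes that fell included an extracellular SOD and porphobilinogen deaminase, which are described with their pathways below. cAMP-responsive element-binding protein-like 2 (OYG_10014228_10013734), a bZIP transcription regulator, was at 245 and 208 RPKM in M1 and at 34.9 and 29 in M2. It fell by 2.82 on the log2 scale, with an SE of 0.35 (limma, adjusted p = 0.0244). Of the hypothetical proteins, CGI_10001497 (OYG_10001497_10004705) went from 105 and 141 RPKM to 6.79 and 7.23, and CGI_10026433 (OYG_10026433_10028016) from 277 and 140 to 15.6 and 27.1. Their adjusted p-values by limma were 0.00839 and 0.039, and the latter gene was named after its values had been seen.

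**Figure D2:**
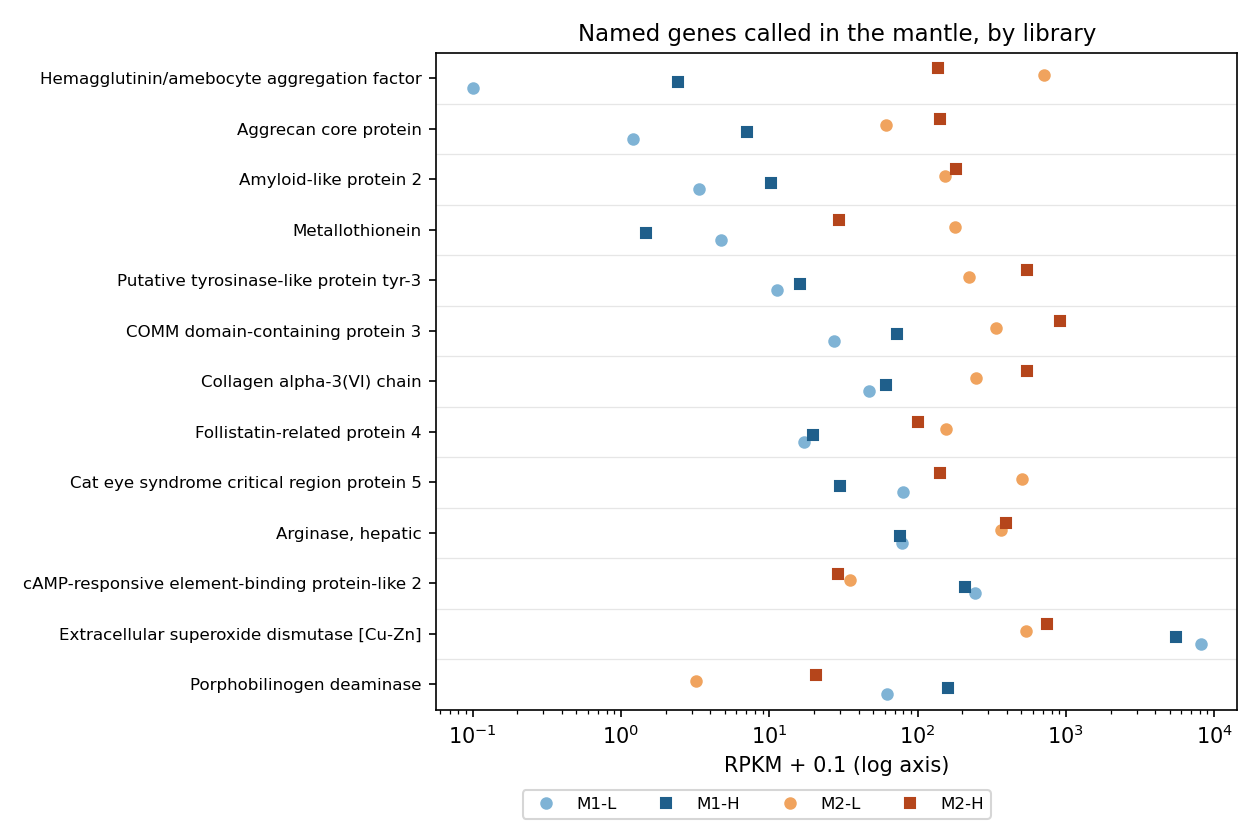
RPKM + 0.1 (log axis) of the 13 named genes called by limma, in unexposed (M1, blue) and exposed (M2, orange) mantle, with circles for the low-Cu and squares for the high-Cu library. In these genes, called for this difference, the M1 and M2 libraries lie apart. The widest gap is in hemagglutinin/amebocyte aggregation factor, at 0 and 2.33 RPKM in M1 and 715 and 138 in M2.

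Metallothionein expression was higher in the exposed mantle, most of all in M2-L. Summed over the 5 metallothionein genes tested, it was 173 and 152 RPKM in M1 and 1090 and 688 in M2. In both pairs 4 of the 5 genes were higher and 2 were at least 2-fold higher, against 21.3% and 3.71% of all genes; the median changes were 2.36 (low-Cu pair) and 0.40 (high-Cu pair) on the log2 scale. These genes are near copies of each other and can share reads, so the split between them is uncertain.

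Only OYG_10021196_10007768 was called among the 5 metallothioneins, under the settings of the limma fit described above. It held 4.59 and 1.37 RPKM in M1 and 179 and 29.3 in M2, which correspond to 3, 1, 133 and 23 reads. The gene rose by 4.79 ± 0.51 on the log2 scale (limma, adjusted p = 0.0108), and with so few reads in M1 the 95% exact interval of the high-Cu log2 ratio ran from 1.79 to 9.78. That interval covers counting error only.

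A different library led in OYG_10012042_10029507, with 92.3 and 58.5 RPKM in M1, 209 in M2-L and 557 in M2-H. Both exposed libraries were above both unexposed ones, and the change of 2.21 ± 0.48 did not pass the test (limma, adjusted p = 0.161). The remaining 3 genes, named after their values had been seen, were highest in M2-L. OYG_10021194_10012460 was at 58.2, 67.2, 616 and 78.9 RPKM, and OYG_10003519_10029507 at 12, 15, 62.1 and 19.9. OYG_10000066_10007768 had 6.13, 9.6, 24.2 and 2.55 RPKM, so its pairs went in opposite directions. None of the 3 passed the test.

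Other genes of Cu transport differed little in sum. The list of 8 tested genes for Cu uptake, chaperones, export and oxidation summed to 306, 287, 273 and 308 RPKM, with 5 genes higher and 1 lower in both pairs and none called. Copper-transporting ATPase 1, the P-type pump that exports Cu in mammals, was represented by 2 gene models that share a family and may share reads. OYG_10001203_10031298 was at 7.38 and 6.19 RPKM in M1 and at 18.3 and 13 in M2 (1.18 ± 0.53 on the log2 scale, limma adjusted p = 0.623), and OYG_10013657_10031298 at 5.15 and 8.25 in M1 and 28.3 and 12.7 in M2.

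The uptake gene behaved otherwise in the pairs. High affinity copper uptake protein 1 (OYG_10018882_10014878), the CTR importer, had 81.9 and 87.6 RPKM in M1, 46.8 in M2-L and 138 in M2-H, so that M2-L was the lowest and M2-H the highest library. Ceruloplasmin (OYG_10006923_10010814), a multicopper oxidase that oxidises iron in vertebrate plasma and the most abundant gene of the list, was at 160, 136, 105 and 92.7 RPKM. The predicted copper homeostasis protein cutC homolog (OYG_10008572_10032608) had 7.94 and 4.74 RPKM in M1 and 16.3 and 11 in M2, on 4 to 14 reads a library. None of these genes passed the test.

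Genes for Zn and Fe handling were higher in both pairs in 10 of 29 cases and lower in 6, and none was called. The 2 that were at least 2-fold higher in both pairs were Zn importers. Zinc transporter ZIP12 (OYG_10008479_10034801), which in mammals brings Zn into the cell, had 6.36 and 3.62 RPKM in M1 and 27.9 and 19.7 in M2 (2.26 ± 0.52 on the log2 scale, limma adjusted p = 0.199). SLC39A7 (OYG_10018192_10039109), which moves Zn out of the secretory pathway, had 17.8 and 14.9 RPKM in M1 and 53.8 and 30.7 in M2. Ferritin (OYG_10027591_10009092), the iron storage protein and among the 10 most abundant genes of the mantle, was at 13615, 11236, 21056 and 11812 RPKM, with M2-L above the other 3 libraries.

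The extracellular SODs, by contrast, were lower in exposed mantle. In oysters a secreted Cu-Zn SOD of this family is the main protein of the haemolymph plasma. All 5 tested genes of the family were lower in both pairs, against 33.3% of all genes, and 4 of them at least 2-fold. The family summed to 43862 and 40432 RPKM in M1 and to 9185 and 14356 in M2. Its members are similar in sequence and may share reads. As a family they were picked out after the values had been seen.

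The called member was OYG_10018833_10030584, with 8157 and 5542 RPKM in M1 and 537 and 748 in M2. It was 15.2-fold lower (low-Cu pair) and 7.41-fold lower (high-Cu pair), and fell by 3.41 on the log2 scale, with an SE of 0.38 (limma, adjusted p = 0.0135). With median centring this call was lost, at a change of -3.23 and an adjusted p of 0.0943 by limma. OYG_10026148_10030582, the most abundant member, was at 21823 and 26425 RPKM in M1 and at 6666 and 10841 in M2. The difference of -1.50 ± 0.40 on the log2 scale did not pass the test (limma, adjusted p = 0.296), although the libraries did not overlap.

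OYG_10004092_10030581 had 12313, 7013, 1614 and 2199 RPKM (limma, adjusted p = 0.0853), and OYG_10018834_10030585 had 1342, 1377, 304 and 504 (adjusted p = 0.114). In the same order, OYG_10000265_10030585 was at 228, 74, 64.5 and 63.6, so that only M1-L stood apart. The intracellular SODs, which remove superoxide in the cytosol and the mitochondria, were not lower. Superoxide dismutase [Cu-Zn] (OYG_10017958_10041186) was at 153, 99, 146 and 134 RPKM, and superoxide dismutase [Mn] (OYG_10017307_10033407) at 94.4, 78, 161 and 154. Neither passed the test, and these 2 genes and OYG_10000265_10030585 were named after their values had been seen. Haemocyte markers, counted as 67 tested genes, summed to 1489, 1618, 1346 and 1552 RPKM in the mantle libraries, and their part in the lower extracellular SODs was not tested.

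**Figure D3:**
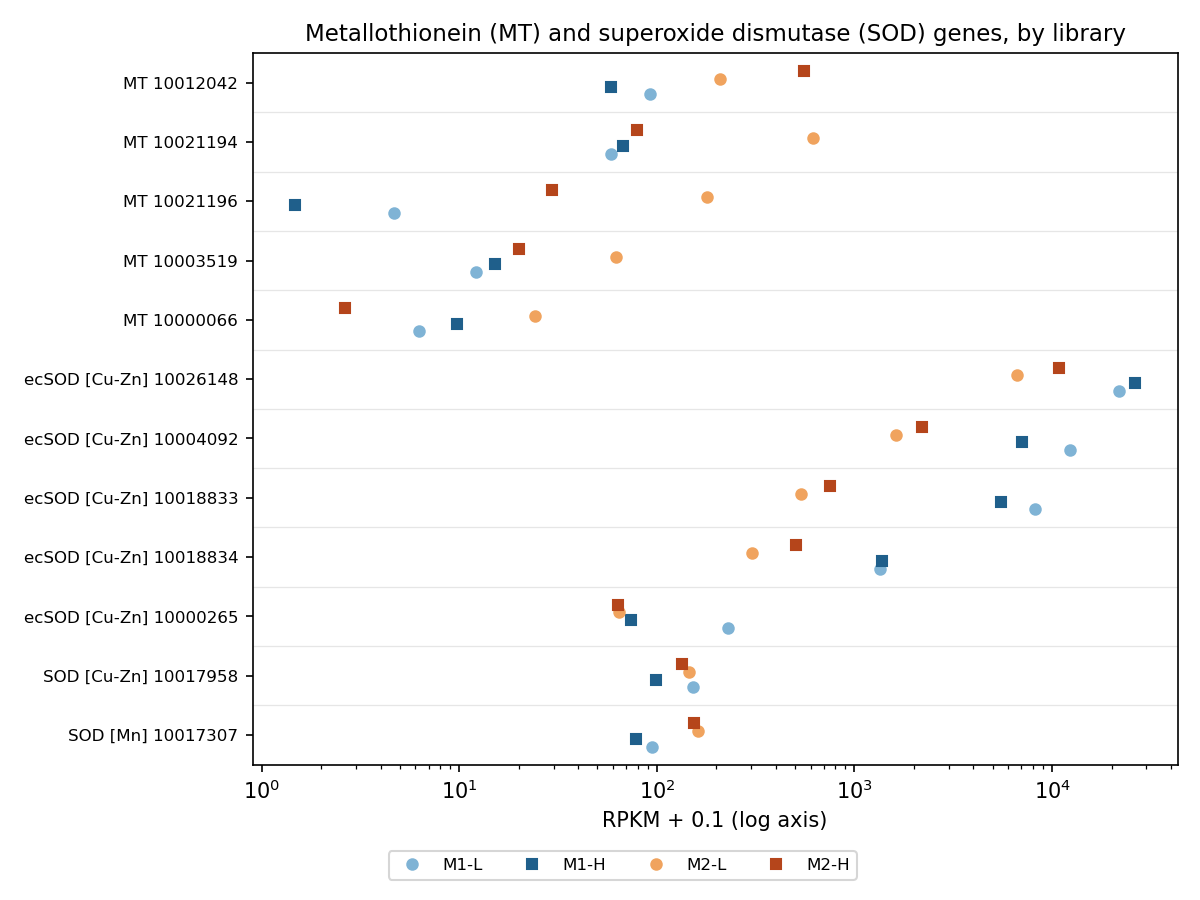
RPKM + 0.1 (log axis) of 5 metallothionein (MT) genes, 5 extracellular SOD (ecSOD) genes and 2 intracellular SODs in the mantle libraries, with the number of each gene ID. The MT genes reach their highest value in an exposed library (orange), while in the ecSODs both exposed libraries lie below the unexposed ones (blue).

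The first enzymes of haem synthesis were lower in exposed mantle. This pathway joins glycine and succinyl-CoA to 5-aminolevulinate, condenses it to porphobilinogen and then to the porphyrin ring into which iron is inserted. Of 9 tested genes 5 were lower in both pairs and 1 was higher, and the list summed to 431 and 887 RPKM in M1 and to 169 and 292 in M2. 5-aminolevulinate synthase (OYG_10021885_10008058), which catalyses the first step, was at 207, 463, 56.6 and 109 RPKM. The difference of -1.98 ± 0.33 did not pass the test (limma, adjusted p = 0.0746).

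Delta-aminolevulinic acid dehydratase (OYG_10007183_10025294), the second enzyme, was at 97.7 and 159 RPKM in M1 and at 56.3 and 88.7 in M2. Porphobilinogen deaminase (OYG_10022618_10024381), the third, had 61.8 and 159 RPKM in M1 and 3.12 and 20.7 in M2. It was 19.8-fold and 7.69-fold lower in the pairs and fell by 3.60 on the log2 scale, with an SE of 0.46 (limma, adjusted p = 0.0286). Its second gene model OYG_10011973_10013600 differed less, at 31, 66, 17.2 and 23.2 RPKM. The exception was uroporphyrinogen decarboxylase (OYG_10021237_10024047), which acts later in the pathway and had 3.19 and 2.85 RPKM in M1 and 7.79 and 7.75 in M2. Delta-aminolevulinic acid dehydratase and the second deaminase were named after their values had been seen.

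Apart from uroporphyrinogen decarboxylase, M1-H exceeded M1-L in each of these genes. The same order was seen in L-ascorbate oxidase (OYG_10020885_10039411), a name given to multicopper oxidases, with 26, 73.4, 4.62 and 15 RPKM, in ATP-binding cassette sub-family B member 6 (OYG_10012380_10019027), a porphyrin transporter in mammals, with 6.88, 16.7, 0.69 and 3.26, and in transcription factor E3 (OYG_10011854_10006442) with 40.3, 80.5, 2.6 and 23.4. In each the high-Cu library was above the low-Cu library of its set, and both M2 libraries were below both M1 libraries. The genes had been picked as lower in both pairs, and the share of all genes without overlap was not counted. None of the 3 passed the test, at adjusted p-values by limma of 0.109, 0.311 and 0.124.

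Shell formation genes were split by family. Of the 77 tested genes for tyrosinases, laccases, chitin enzymes, carbonic anhydrases and shell matrix proteins, 15 were at least 2-fold higher in both pairs (all genes, 3.71%) and 9 were at least 2-fold lower (all genes, 4.34%). Of the 15, 3 had a mean under 1 RPKM in M1 and passed the filter through M2. The list summed to 1339, 1430, 2330 and 3716 RPKM. Its median change was 0.18 (low-Cu pair) and 0.66 (high-Cu pair) on the log2 scale, against -0.27 and 0.00 over all genes.

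Tyrosinases carried most of this difference. Of the 15 tyrosinase-like genes tested 13 were higher in both pairs, 9 of them at least 2-fold, and their sum of 332 and 311 RPKM in M1 compared with 911 and 1842 in M2. Chitin-cleaving enzymes were higher as well, with 8 of 12 tested chitinase and chitotriosidase genes higher in both pairs, and sums of 252 and 284 RPKM in M1 and 635 and 1060 in M2. Among them chitotriosidase-1 (OYG_10026605_10010934) was at 77.6, 88.3, 278 and 410 RPKM (2.03 ± 0.33, limma adjusted p = 0.071), endochitinase (OYG_10024466_10027347) at 2.78, 3.73, 55.3 and 25.8, and acidic mammalian chitinase (OYG_10022102_10003044) at 1.78, 0.638, 9.39 and 4.74.

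Laccases are Cu-containing phenol oxidases of another family. Of the 17 tested 7 were higher in both pairs and 5 were lower, the latter all by at least 2-fold and none of the former by 2-fold in both, and their sums hardly differed, at 202, 190, 190 and 176 RPKM. Perlucin (OYG_10012515_10024506), a lectin of the shell matrix, rested on 1 read in each M1 library and none in M2, and its difference was not detectable at this depth. The families were separated after the values had been seen.

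The 5 genes with the smallest p in the contrast of mantle and gill changes included 4 that were abundant in mantle. These 4 had next to no reads in unexposed gill and were higher in exposed mantle. Hypothetical proteins CGI_10023446 (OYG_10023446_10041477) and CGI_10008434 (OYG_10008434_10023710) were at 254, 317, 871 and 1175 RPKM and at 120, 176, 237 and 700. Electroneutral sodium bicarbonate exchanger 1 (OYG_10027254_10036261), a carrier of bicarbonate across cell membranes, had 403 and 438 RPKM in M1 and 678 and 1218 in M2. Mesenchyme-specific cell surface glycoprotein (OYG_10005749_10005185) was at 753, 729, 1154 and 1566. In all 4 genes both exposed libraries were above both unexposed ones without a limma call. The unexposed gill libraries held between 0 and 0.52 RPKM, and exposed gill held more in each gene, with 59.3 and 8.64 RPKM of CGI_10023446, 27.6 and 7.32 of CGI_10008434, 32.3 and 10.3 of the exchanger and 27.7 and 9.45 of the glycoprotein in G2. Because the genes were picked on this contrast, neither their gill values nor their mantle values are a separate result. The share of all genes without overlap between M1 and M2 was not counted. The mantle marker list summed to 687, 755, 1292 and 2217 RPKM in the 4 mantle libraries, and its part in these differences was not tested.

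Extracellular matrix genes included the called collagen. Collagens are triple-helical fibre proteins, and type VI forms beaded filaments around cells. Collagen alpha-3(VI) chain (OYG_10025212_10032818) was at 46.6 and 61 RPKM in M1 and 246 and 544 in M2, and rose by 2.78 ± 0.35 on the log2 scale (limma, adjusted p = 0.0282). Of the 66 collagens tested 22 were higher in both pairs and 17 were lower, and by at least 2-fold 11 were higher and 1 was lower. Of the 11, 4 had a mean under 1 RPKM in M1 and passed the filter through M2. Collagen alpha-6(VI) chain (OYG_10003289_10033212), the most abundant, was at 1206, 1036, 988 and 630 RPKM, and the sum over the list was 4860, 4834, 3696 and 4510.

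Aggrecan core protein (OYG_10021137_10011877), named after the large proteoglycan of vertebrate cartilage, which carries a C-type lectin domain, was one of the genes the study also assayed by qRT-PCR. The gene had a coding length of only 447 bases, and it was counted among the lectins. The primers designed for it are shown because they identify the transcript that carried one of the widest exposed to unexposed gaps, each 5′ to 3′ in lower case.
aggrecan forward primer: agatgttatgtcgcacgcag
aggrecan reverse primer: agaagggaacctatagtcgc
The gene had 1.11 and 6.96 RPKM in M1 and 61.4 and 142 in M2, on 1, 7, 63 and 154 reads. It rose by a log2 change whose 95% interval ran from 3.84 to 6.16 (limma, adjusted p = 0.0093). In gill its level followed the Cu class instead, with 180 and 264 RPKM in G1-L and G2-L and 0 and 0.864 in G1-H and G2-H.

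Matrix proteases and their inhibitors had no common direction, with 9 of 47 tested genes of the list higher in both pairs and 17 lower. ADAMTS16 (OYG_10016999_10025827), a secreted metalloproteinase with thrombospondin motifs, was at 14.6 and 14.8 RPKM in M1 and at 69.2 and 125 in M2 (2.66 ± 0.41, limma adjusted p = 0.0576). Metalloproteinase inhibitor 3 (OYG_10000389_10036144), an inhibitor of that class, had 73.6 and 65.9 RPKM in M1 and 810 and 233 in M2 (2.64 ± 0.43, limma adjusted p = 0.0703). ADAMTS9 (OYG_10024347_10038275) and a scarcer gene for metalloproteinase inhibitor 3 (OYG_10011498_10016331) lay the other way, at 4.19, 1.07, 0.526 and 0 RPKM and at 6.83, 3.4, 2 and 1.26. Angiopoietin-4 (OYG_10022838_10018382), a fibrinogen-domain ligand in vertebrates, was at 2.59, 3.09, 20.5 and 32.3. Tenascin-R (OYG_10003430_10031975), a matrix glycoprotein, was at 45 and 35.2 RPKM in M1 and at 12.8 and 6.32 in M2. None of these passed the test.

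Immune genes differed by family. C1q domain proteins, which bind microbial surfaces and are numerous in bivalves, were higher in both pairs in 14 of 40 cases and lower in 5. By at least 2-fold 10 were higher and 1 was lower, but 4 of the 10 had a mean under 1 RPKM in M1 and passed the filter through M2. Complement C1q-like protein 4 (OYG_10026907_10036315) was at 0 and 2.52 RPKM in M1 and 9.08 and 32 in M2, and OYG_10020461_10037144 of the same name at 1.28, 0, 16.9 and 19.2. The most abundant member, complement C1q tumor necrosis factor-related protein 3 (OYG_10020809_10035712), differed little, at 169, 201, 148 and 201 RPKM. No C1q gene was called.

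Lectins other than C1q showed no common direction, with 19 of 85 higher and 25 lower in both pairs. By at least 2-fold 9 were higher and 5 were lower, against 3.71% and 4.34% of all genes. Of the 9, 4 had a mean under 1 RPKM in M1 and passed the filter through M2. The only lectin called was the gene named aggrecan core protein. L-rhamnose-binding lectin CSL3 (OYG_10027161_10032643) was at 2.36, 1.41, 11.1 and 9.16 RPKM. Toll-like receptors, which sense microbial products, were lower in both pairs in 25 of 49 tested genes and higher in 13. Protein toll (OYG_10005421_10015915) was at 32.2 and 10.8 RPKM in M1 and at 5.18 and 1.7 in M2 (-2.60 ± 0.58, limma adjusted p = 0.182). C3 and PZP-like alpha-2-macroglobulin domain-containing protein 8 (OYG_10024038_10019554), of the complement and protease-trapping family, was at 122, 62.2, 24.7 and 11.7 (adjusted p = 0.071). No Toll-like receptor was called.

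Proteasome genes, whose complex degrades ubiquitin-tagged proteins, were higher by small amounts in most members. Of 42 proteasome genes tested, 35 were higher in both pairs (83.3%) and none was lower in both. The median change was 0.67 (low-Cu pair) and 0.58 (high-Cu pair) on the log2 scale, and 2 genes reached 2-fold in both. The catalytic core was part of this, with 14 of 15 alpha and beta subunits higher in both pairs, as was the regulatory lid and base, with 16 of 19 tested 26S non-ATPase subunits. For the subunit families the sums were 849, 596, 1384 and 905 RPKM for the core and 620, 488, 1034 and 646 for the regulatory particle.

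26S proteasome non-ATPase regulatory subunit 2 (OYG_10002226_10019145), a scaffold of the regulatory particle, was at 7.96 and 5.31 RPKM in M1 and at 19.8 and 11.9 in M2. Subunit 10 (OYG_10028455_10034560), an assembly chaperone of the particle, was at 1.12, 4, 3.5 and 9.94 and so overlapped between the groups. The most abundant member, proteasomal ubiquitin receptor ADRM1 (OYG_10012171_10002343), had 294, 235, 318 and 188 RPKM, with no common direction. No proteasome gene was called.

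Translation factors were higher in both pairs in 38 of 63 genes and lower in 6, with medians of 0.40 and 0.39. Eukaryotic translation initiation factor 3 subunit B (OYG_10021675_10033719) and subunit F (OYG_10023726_10030632), parts of the complex that loads ribosomes on mRNA, were at 20.3, 17.7, 45.9 and 41.7 RPKM and at 60.9, 39, 153 and 79.9. Cytosolic ribosomal proteins, in contrast, were higher mainly in one pair, with a median of 0.44 (low-Cu pair) and -0.05 (high-Cu pair), and the list summed to 246318, 195184, 337954 and 186184 RPKM. 60S ribosomal protein L36 (OYG_10021069_10004969) followed this pattern at 10371, 8513, 14105 and 8018. A single ribosomal gene was strongly lower, 40S ribosomal protein S24 (OYG_10001493_10002374), at 432 and 475 RPKM in M1, 8.59 in M2-L and 149 in M2-H (limma, adjusted p = 0.133).

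Folding factors of the endoplasmic reticulum, which mature secreted proteins, were higher in both pairs in 21 of 42 genes and lower in 5, with medians of 0.20 and 0.48. Peptidyl-prolyl cis-trans isomerase B (OYG_10023851_10018076), one of its proline isomerases, was at 32.6 and 22.7 RPKM in M1, 70.9 in M2-L and 413 in M2-H. Cytosolic chaperones were split by type. In the HSP70 list, of whose 117 tested genes 109 were of the HSP70 12A and 12B type, 49 genes were lower and 16 higher in both pairs. All 49 lower genes were among these 109, of which 8 were higher in both pairs. None of the other HSP70 genes was lower in both. Heat shock protein beta-1, a small chaperone, was present as an abundant gene without a difference (OYG_10017582_10033789, at 1535, 994, 1589 and 1397 RPKM) and as a scarce gene that was higher (OYG_10011376_10020894, at 3.89, 4.35, 30.8 and 21). DnaJ-like protein subfamily C member 15 (OYG_10028300_10018492), a cochaperone of mitochondrial import, was at 70.9, 32.9, 184 and 87.3. None of these genes passed the test.

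**Figure D4:**
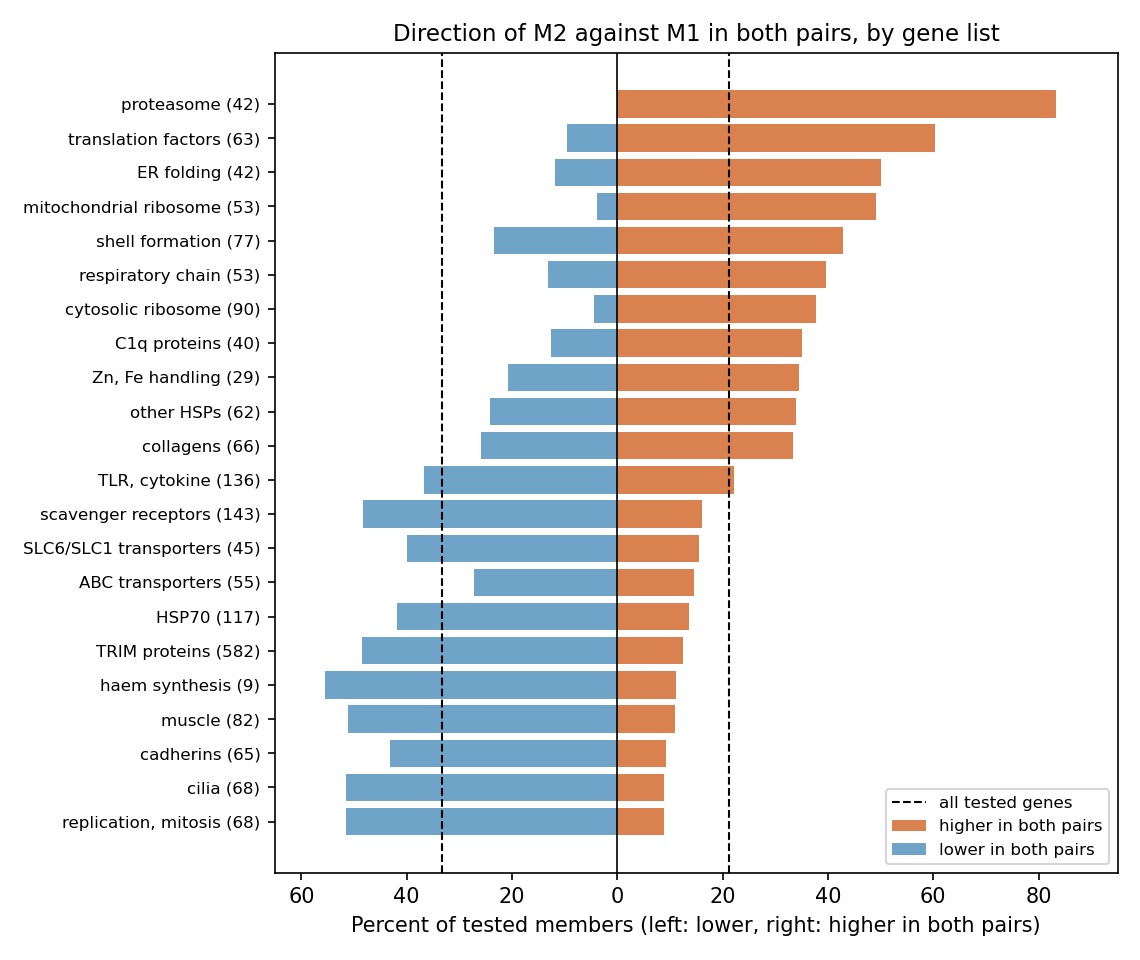
Percent of the tested members of 22 gene lists (number tested in brackets) that were higher (right) or lower (left) in exposed mantle in both pairs, at any size. Dashed lines mark all tested genes, at 21.3% higher and 33.3% lower; the proteasome list lies furthest right, at 83.3% higher.

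Muscle and cilia genes were lower in most of the members that agreed between the pairs. Of 82 muscle genes tested 42 were lower in both pairs and 9 were higher, with medians of -0.44 in each pair. Myosin heavy chain, striated muscle (OYG_10022093_10015821), the motor of the striated fibres, was at 93.3 and 191 RPKM in M1 and at 40 and 46.2 in M2 (-1.63 ± 0.38, limma adjusted p = 0.199). Sarcoplasmic calcium-binding protein (OYG_10006807_10017438), a Ca buffer of invertebrate muscle, was at 322 and 478 RPKM in M1 and at 144 and 93.9 in M2. A further gene of that name (OYG_10006808_10008492) had 9 and 13 reads in M1 and none in M2. No muscle gene was called. The adductor and striated muscle markers, 16 of 22 tested being lower in both pairs, summed to 2830, 4200, 1949 and 1972 RPKM.

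For cilia 35 of 68 genes were lower in both pairs and 6 were higher. Their medians were -0.72 (low-Cu pair) and -0.12 (high-Cu pair) on the log2 scale, so most of that difference lay in the low-Cu pair. Dynein heavy chain 2, axonemal (OYG_10022791_10024652), a motor of the ciliary axoneme, was at 22.1, 40.3, 3.27 and 15.5 RPKM, with an adjusted p of 0.26 by limma. The ciliated epithelium markers summed to 1174, 1326, 1063 and 1238 RPKM in mantle, against 3160 to 4825 in the gill libraries. Sperm markers summed to 1118, 1280, 933 and 1114 RPKM and digestive gland markers to 185, 150, 142 and 90.3, so both sums were lower in the exposed libraries. Oocyte markers, at 143, 182, 163 and 144, and nerve markers, at 650, 979, 872 and 829, overlapped between the groups. Whether the proportions of tissues in the pooled mantle pieces bear on the muscle and shell genes was not tested.

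Transporters of neurotransmitters and amino acids were lower in both pairs in 18 of 45 genes and higher in 7, while the sum over the list was 1481, 1652, 1477 and 1618 RPKM. Sodium- and chloride-dependent GABA transporter 2 (OYG_10008594_10034483), which clears GABA from the extracellular space, was at 32.4 and 71.5 RPKM in M1 and at 13.6 and 20.2 in M2 (-1.53 ± 0.42, limma adjusted p = 0.314). The most abundant member, another gene for GABA transporter 2 (OYG_10028337_10021772), had no common direction at 312, 240, 219 and 287 RPKM. Neither is the gene model that the study reported as GAT2, whose values are not given here. GABA transporter 1 (OYG_10017325_10014478) was at 18.6, 49.1, 7.2 and 15.8, and glycine transporter 1 (OYG_10004868_10034515) at 12.3, 13.1, 1.15 and 5.22. In OYG_10008594_10034483, GABA transporter 1 and glycine transporter 1 both exposed libraries lay below both unexposed ones. They had been picked as at least 2-fold lower in both pairs, and the share of all genes without overlap was not counted. ABC transporters, ATP-driven pumps that include drug and metal exporters, were lower in both pairs in 15 of 55 genes and higher in 8, close to the shares of all genes. Multidrug resistance-associated protein 1 (OYG_10025447_10019900), an exporter of glutathione conjugates, was at 73.4, 168, 23.5 and 38.4 RPKM (-1.88 ± 0.37, limma adjusted p = 0.124). No gene of either list was called.

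A few genes with a wide gap belonged to none of these groups. FMRFamide receptor (OYG_10019164_10033105), the receptor of a molluscan neuropeptide, was at 46.5 and 38.1 RPKM in M1, 953 in M2-L and 82.4 in M2-H. Thaumatin-like protein 1a (OYG_10012508_10024239) and cystatin-A1 (OYG_10002871_10015400), a cysteine protease inhibitor, stood at 12.2 and 144 RPKM and at 2.48 and 162 in M2-L and M2-H, while M1 held 1 read of the first and none of the second. Spore cortex-lytic enzyme (OYG_10025038_10009682) and putative citrate synthase (OYG_10022397_10012763) were at 33.9 and 9.05 and at 48.4 and 12.7 RPKM in M2, with at most 1 read in any M1 library. Kynurenine--oxoglutarate transaminase 3 (OYG_10028395_10041840), an enzyme of tryptophan breakdown, was at 45.6, 101, 7.06 and 24.3 in the 4 libraries. Protein p8 MTCP-1 (OYG_10009479) was at 25.1, 56.1, 6.6 and 6.25, and tudor and KH domain-containing protein (OYG_10007716_10035921) at 30.6, 12.3, 5.83 and 2.12. None passed the test. Cytochrome b (OYG_10001766), among the most abundant genes, was at 16019, 12141, 10964 and 7690. Cytochrome P450 2D14 (OYG_10014162_10031541) was at 60.9, 55.3, 414 and 53.7, higher in M2-L alone.

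The gill libraries of the same sets, G1 and G2, served to show where mantle differed. Of the 34 genes called in mantle 21 (61.8%) differed in the same direction in both gill pairs and 1 in the opposite direction in both. Among the 10830 tested genes with one direction in both mantle pairs these shares were 39% and 22.5%. The extracellular SOD called in mantle, OYG_10018833_10030584, was also lower in exposed gill, at 2257 and 2950 RPKM in G1-L and G1-H and 64.6 and 506 in G2-L and G2-H. Metallothionein OYG_10021196_10007768 was higher in G2-L alone, with 15.1, 10.6, 150 and 3.58 RPKM in G1-L, G1-H, G2-L and G2-H. Of the 29 genes that rose in mantle, 22 were under 5 RPKM in G1-L, G1-H and G2-H, against 4506 of all 19809 genes tested. The genes tested were kept by their mantle level only. The median of the 29 genes was 16 and 12.5 RPKM in M1, 204 and 182 in M2, 0.683 and 0 in G1, and 12 and 1.2 in G2.

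The library G2-L stood apart from the other gill libraries in genes that rose in mantle and in tyrosinase-like genes. Of the 22 genes picked as under 5 RPKM in the other gill libraries, 16 (72.7%) were at 5 RPKM or more in G2-L, against 9.94% of the 4506 tested genes picked in the same way. Tyrosinase-like genes summed to 89 RPKM in G2-L and to between 1.81 and 4.81 in the other gill libraries. Changes in the low-Cu gill pair rest on that library. No gene was called as differing between tissues in its change with exposure when the contrast itself was tested with limma (0 of 19809, or 0%). In that test 1199 genes had an unadjusted p under 0.05, and the smallest adjusted p was 0.358. With single pools and 2 residual degrees of freedom, the lack of calls does not show that the changes were alike. Voom and the other count tools were not run on that contrast.

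**Figure D5:**
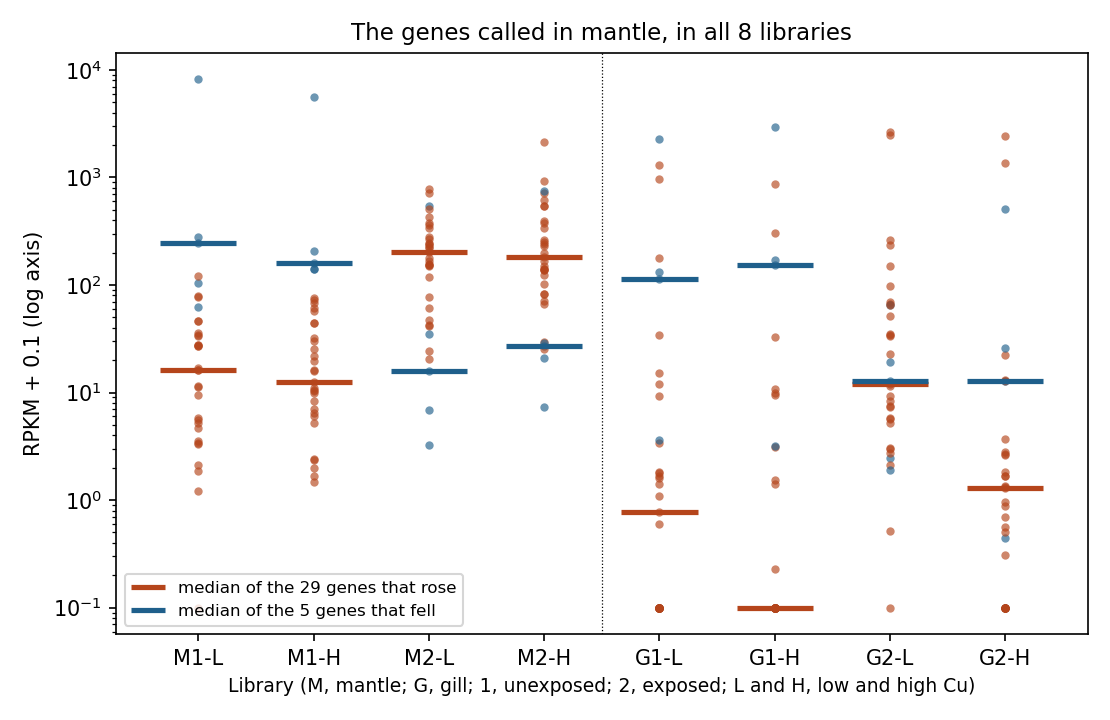
RPKM + 0.1 (log axis) in all 8 libraries of the 29 genes that rose and the 5 that fell in mantle, 1 point per gene and library, with bars at the medians. Risen genes lie higher in M2 (medians 204 and 182 RPKM) than in M1 (16 and 12.5), and among the gill libraries are highest in G2-L (median 12).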

How the data were processed

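Per the labels and the methods, RNA of 6 pooled oysters was sequenced for each of 8 libraries. The authors filtered low-quality, empty and single-copy tags, aligned what was left by tophat2 against the genome of *C. gigas* (at most 1 mismatch) and deposited RPKM values, in which a dash, taken as 0, marks a gene without reads. TopHat and Cufflinks are named without versions in the submitters' processing notes. The methods describe both short tags and randomly primed fragments. All 8 value columns were matched to a library by name. Whole reads came out within 0.001 of a whole number for 100% of the 25181 genes with any; they cover reads assigned to genes only.

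Genes averaging an RPKM of 1 or more over the 4 mantle libraries were kept (19809 of 25647), and M2 minus M1 was taken on log2(RPKM + 0.1) within the low-Cu and the high-Cu pair. Limma 3.58.1 in R 4.3.3 was fitted with an intensity trend and the Cu class as block, with Benjamini-Hochberg adjustment over all genes kept. The block follows the study's own Cu classes; the classes are not matched animals. The contrast with gill used all 8 libraries. Fisher's exact test (two-sided, FDR of at most 0.001) on recovered reads compared 2 libraries, not conditions. A fold against 0 reads used a floor of 3 reads per library. The steps were tested on simulated data. Figures and sums used Python 3.11.15 and its packages pandas 2.3.3, matplotlib 3.10.9, numpy 2.4.6 and scipy 1.17.1.

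Gene names are those of the Blast nr column, a best database match. Genes were named by a rule. It took the 12 higher and 12 lower named genes ranked by the smaller of their changes in the pairs, at a mean RPKM of at least 10. The 10 most abundant genes were added, with up to 4 genes and the most abundant one of each of 38 function lists. Last came the 10 genes with the smallest p and the 5 with the smallest p in the contrast of mantle and gill changes. The members, lists (8 of them of cell markers) and tests were chosen with earlier results of these data known. Some false name matches, such as the copper chaperone for SOD and calcyclin, were taken out of lists after values had been seen. None of the gene IDs (0 of 25647) matched the RefSeq table, and coordinates are therefore not given. Alternatives were pseudocounts of 1 and 0.01, no filter or a mean RPKM of at least 5, median centring, quantile normalization, a log2 threshold of 2, no block, no trend, all 8 libraries, voom, and libraries or pairs left out.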

Additional observations from a re-analysis of the deposited data

Results flagged for a closer look

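For 7 of the 96 genes followed through the alternatives the difference had one direction in both mantle pairs and the other in both gill pairs. This was common: it held for 2441 (22.5%) of the 10830 tested genes with one direction in both mantle pairs. The difference between the tissues was tested with limma on all 8 libraries, and for none of the 7 genes did the adjusted p pass 0.05. Values below are the mantle change minus the gill change on the log2 scale. Gill values in the low-Cu pair rest on G2-L, which stood apart from the other gill libraries.

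Hypothetical protein CGI_10021460 (OYG_10021460_10014325) had the smallest p of these 7, with 21.1, 29.9, 2.32 and 1.46 RPKM in mantle (M1, then M2, low Cu first) and 6.92, 1.52, 63.4 and 24 in gill in the same order, a difference of -7.23 (limma, adjusted p = 0.358). For heat shock 70 kDa protein 12B (OYG_10014217_10038378) the difference was -10.04, with 5.91 and 9.25 RPKM in M1, 0 and 1.23 in M2, 0 in both G1 libraries and 3.63 and 6.9 in G2, all on at most 7 reads in mantle. Protein toll (OYG_10005421_10015915) differed by -3.37, dynein heavy chain 2, axonemal (OYG_10022791_10024652) by -2.09 and delta-aminolevulinic acid dehydratase (OYG_10007183_10025294) by -1.33. The dynein gene hardly differed in gill, with changes of 0.08 (low-Cu pair) and 0.01 (high-Cu pair). The predicted copper homeostasis protein cutC homolog (OYG_10008572_10032608) differed by 2.72 in the other direction, being lower in exposed gill (15.6 and 13.7 RPKM in G1, 5.42 and 4.12 in G2), and ferritin (OYG_10027591_10009092) by 0.64. The adjusted p of these 6 genes by limma lay between 0.739 and 0.749.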

How the results depend on the processing

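The number of genes called by limma (34) depended on the processing. It was 0 with a pseudocount of 0.01, without the filter, without the Cu class block (no replicate block; the pairing is by Cu class) and without the trend, 8 with quantile normalization, 1 with all 8 libraries, 122 at a mean RPKM of at least 5 and 167 with voom on recovered reads. Unadjusted p-values under 0.05 numbered 1035 to 1656 in the settings with 0 calls. Leaving out a pair leaves no test. In fits chosen after seeing the data, which leave out 1 library and the block and assume that the lone library varies like the other group, calls were 0 to 0, with 683 to 3215 genes at an unadjusted p under 0.05. The numbers of the 2 Cu classes were not a shared animal or tank.

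Genes at least 2-fold apart in both pairs (1595) numbered 730 at a mean RPKM of at least 5 (409 higher, 321 lower). They numbered 424 at a log2 threshold of 2 (244 higher, 180 lower) and 307 with Fisher's exact test in both pairs (206 higher, 101 lower). In a single pair there were 4913 to 7643. Genes called as differing between mantle and gill in their change were 0 under each setting tried.

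Of the 96 genes followed through the alternatives, 18 were called, and all 18 lost the call with a pseudocount of 0.01 or no filter, 11 with quantile normalization and 3 with median centring (extracellular SOD OYG_10018833_10030584, arginase and cat eye syndrome critical region protein 5). A sign differed from the joint estimate in 8 genes, of which none was called. Without the low-Cu and without the high-Cu pair in turn, the values were 0.66 and -0.81 for high affinity copper uptake protein 1 (OYG_10018882_10014878; 0.10 with median centring), 0.00 and -0.19 for complement C1q tumor necrosis factor-related protein 3 (OYG_10020809_10035712; 0.09 with median centring), -0.32 and 0.11 for ADRM1 (OYG_10012171_10002343; 0.07 with median centring), -1.87 and 1.96 for metallothionein OYG_10000066_10007768, -0.09 and 0.44 for 60S ribosomal protein L36 (OYG_10021069_10004969), -0.04 and 2.76 for cytochrome P450 2D14 (OYG_10014162_10031541), 0.26 and -0.51 for GABA transporter 2 (OYG_10028337_10021772; 0.05 with median centring), and 0.44 and -0.06 for superoxide dismutase [Cu-Zn] (OYG_10017958_10041186). The cause of these changes was not tested. At this depth 3 reads of a gene of 1 kb correspond to 1.24 to 1.49 RPKM in mantle, so genes near that level carry little information.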

Other observations

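Several gene groups outside the main comparison had a direction in both pairs. Replication and mitosis genes were lower in both pairs in 35 of 68 tested and higher in 6, TRIM-type ubiquitin ligases in 282 of 582 and higher in 73, scavenger receptors in 69 of 143 and higher in 23, and cadherins in 28 of 65 and higher in 6. Over all genes 33.3% were lower and 21.3% higher. Scavenger receptor genes had medians of -1.21 (low-Cu pair) and -0.10 (high-Cu pair) on the log2 scale, so most of that difference lay in 1 pair. The same held for replication and mitosis genes, with medians of -0.80 and -0.10, and for cadherins, with -0.53 and -0.15. Mitochondrial ribosomal proteins were higher in 26 of 53 genes and lower in 2, and respiratory chain genes higher in 21 of 53 and lower in 7. No gene of these lists was called.

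The counts of the remaining lists were as follows. Lower and higher in both pairs were 28 and 11 of 81 apoptosis genes, 37 and 16 of 92 homeobox genes, 17 and 9 of 47 metalloproteinase genes, 32 and 19 of 87 calmodulin genes, 28 and 19 of 92 cytochrome P450 genes, 12 and 10 of 45 ion regulation genes, 36 and 34 of 129 neuropeptide and acetylcholine receptor genes, 50 and 30 of 136 Toll-like receptor and cytokine genes, and 4 and 5 of 18 IMAP GTPases. The same counts were 11 and 14 of 69 antioxidant genes, 6 and 7 of 30 glycolysis genes, 11 and 20 of 50 lysosomal genes, 15 and 21 of 62 other heat shock genes and 1 and 4 of 10 lipid transport genes.

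Neighbouring gene IDs appeared among the hypothetical proteins that rose. CGI_10018986 (OYG_10018986_10021327) was at 33.5, 44.5, 380 and 722 RPKM (M1, then M2, low Cu first), CGI_10018987 (OYG_10018987_10021328) at 3.32, 8.18, 41.6 and 261, and CGI_10018988 (OYG_10018988_10021328) at 9.32, 9.73, 204 and 137. Another such set was CGI_10007669 (OYG_10007669_10034402), at 5.69, 12.5, 42.2 and 618, with CGI_10007670 (OYG_10007670_10034403), at 27.8, 67.7, 157 and 2158, and a further one CGI_10027473 (OYG_10027473_10005451), at 33.9, 21.9, 239 and 149, with CGI_10027474 (OYG_10027474_10005450), at 120, 57.6, 775 and 339. These sets were noticed after the values had been seen. Adjacency of the numbers was not checked against a genome.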
